A study of Homo sapiens with 7 samples.

Results

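Regions of accessible chromatin assigned to 6 genes of Polycomb repressive complex 2 (PRC2) subunits, PHF19, EZH2, EED, RBBP4, RBBP7 and LCORL, were described in Kasumi-1 cells, an established acute myeloid leukaemia line. They made up 18 of the 8815 regions that the authors listed as changed, and were chosen by the gene symbol that the deposited annotation gives each region. Since only regions past the authors' thresholds are listed, the members were in effect selected on their change in accessibility, so their folds and false discovery rates (FDR) are given as a description, with no test. Cells with lentiviral shRNA against PHF19 (3 libraries) were set against cells with a scrambled control shRNA (4 libraries, whose treatment label reads WT). Both groups came from 1 line and were selected with puromycin at 2 µg/ml, added 48 hours after the shRNA for at least 24 hours, and 10000 cells went into each library. The assay was ATAC-seq, where a transposase cuts into open chromatin and leaves adapters there for sequencing. The files used here give group means, so a single region has no SD, n or read depth, and the markers of the line or a library that stands apart could not be checked.

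PRC2 places methyl groups on lysine 27 of histone H3, a mark of silenced developmental genes. EZH2 is its catalytic subunit, EED binds the finished mark and stimulates the enzyme, and RBBP4 and RBBP7 are closely related histone-binding WD-repeat proteins that also serve in other chromatin complexes. PHF19 is a Polycomb-like protein that brings PRC2 to chromatin and binds methylated lysine 36 of histone H3 through its Tudor domain, and the LCORL locus encodes PALI2, an accessory subunit of the same PRC2.1 class. The 4 core genes and 2 accessory genes were each represented by at least 1 increased promoter region, and none had a decreased region. In all, 16.4% of the 52675 regions tested by the authors were listed as increased and 0.38% as decreased. Among 20056 protein-coding genes, 25.2% had an increased region, 17.5% had at least 1 at the promoter and 0.818% had a decreased region. Because the same contrast chose the members, nothing is read from their count against these shares. The sources used here do not say how reads were scaled between libraries, a step on which every fold here depends.

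The 18 regions were split evenly by place, with 9 at promoters and 9 in intergenic DNA, and none lay in an intron, an exon or an untranslated region. Over all 8615 increased regions, 50.1% lay at promoters and 26.8% were intergenic. The 9 promoter regions lay within 1 kb of a transcription start site (TSS), and 6 of them covered it. The 9 intergenic regions all lay upstream of their gene, 15.4 to 673.8 kb from the TSS, whereas 58.9% of all increased intergenic regions lay upstream of the nearest gene. LCORL had 7 regions, PHF19, EZH2 and RBBP7 had 3 each, and EED and RBBP4 had 1 each. The LCORL locus alone gave 5 of the 9 intergenic regions, so the intergenic and upstream shares rest largely on 1 gene.

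**Figure D1:**
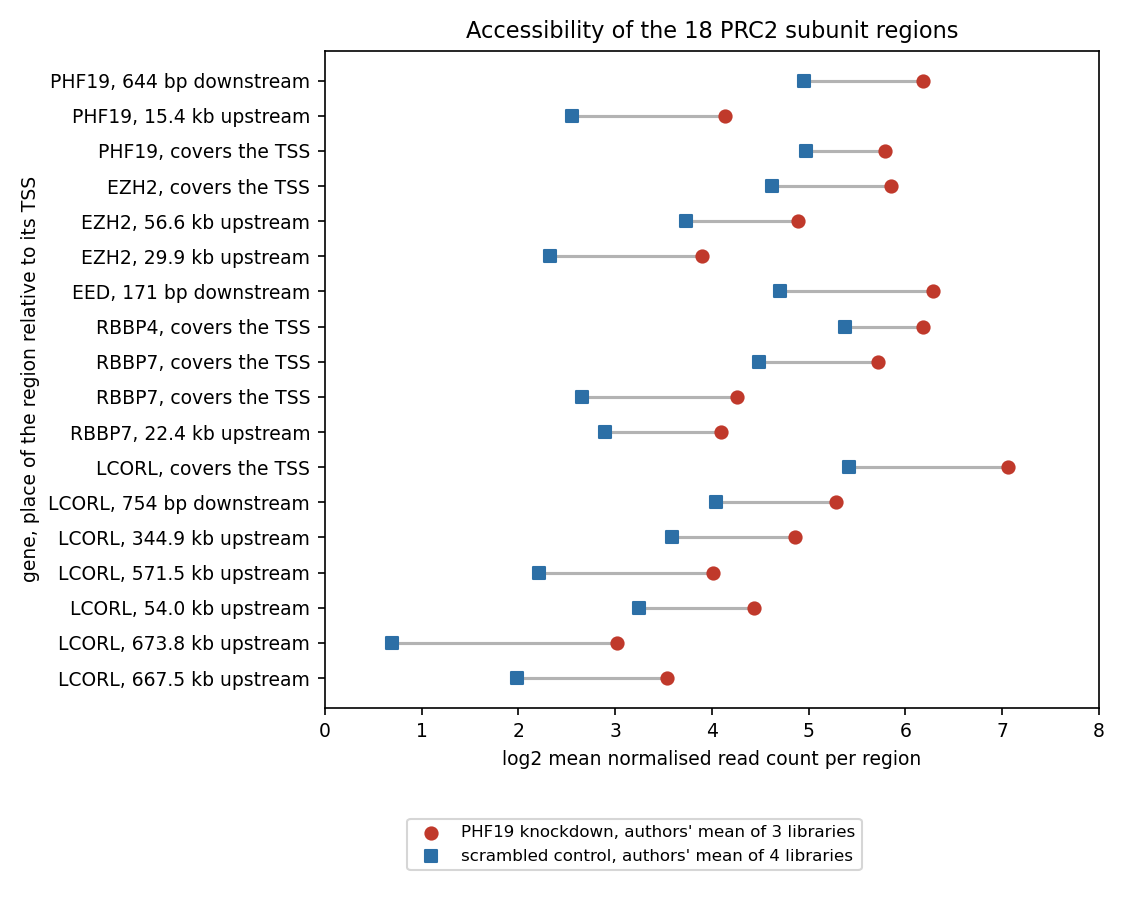
Authors' mean normalised read count per region on a log2 scale (horizontal axis) for the 18 regions (vertical axis, labelled with the gene and the place of the region relative to its TSS), with circles for PHF19 knockdown and squares for the scrambled control. The knockdown mean is the higher in every region, the LCORL region that covers the TSS is the highest at 7.07, and the LCORL region 673.8 kb upstream has the widest gap, 3.02 against 0.70.

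PHF19, the gene targeted by the shRNA, had a more accessible promoter in the knockdown. In the authors' deposited table the region 644 bp inside the gene (chr9:123638562-123638962, coordinates as deposited and read as hg19) had an authors' mean of 72.7 normalised reads in knockdown cells, against 30.9 in control cells, with a log2 fold of 1.10 and an FDR of 9.42e-05. A wider adjoining region covered the TSS (chr9:123639126-123639897), 163 bp away from the first. Its authors' mean was 55.2 reads in knockdown cells, against 31.5 in control cells, with a log2 fold of 0.72 and an FDR of 0.0204 in the authors' deposited table. The control means of these neighbours were thus nearly equal, and the knockdown mean was the higher in the region inside the gene. These are counts per region, not scaled by width, and the region over the TSS spanned 772 bp, against 401 bp. The near equality therefore does not hold per base. A region 15.4 kb upstream (chr9:123654984-123655384) was less accessible in both groups, with an authors' mean of 17.6 reads in knockdown cells, against 5.90 in control cells, a log2 fold of 1.10 and an FDR of 0.00904 in the authors' deposited table. The deposited annotation calls it intergenic and ties it to a PHF19 transcript of 7754 bp, while the promoter regions are tied to one of 21676 bp. RefSeq gives PHF19 a length of 48478 bp, and the region ended 37454 bp from the 3′ end of the longer deposited transcript, so the label intergenic may depend on the transcript chosen. An shRNA acts on the transcript, so accessibility of the gene is no check of the knockdown, and no RNA or protein level was analysed here.

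Among core subunits, the catalytic gene EZH2 had a promoter region that covered its TSS (chr7:148581251-148581651). Its authors' mean was 57.8 reads in knockdown cells, against 24.7 in control cells, with a log2 fold of 1.05 and an FDR of 6.28e-04 in the authors' deposited table. A pair of intergenic EZH2 regions lay 29.9 and 56.6 kb upstream. The nearer (chr7:148611358-148611758) had an authors' mean of 14.9 reads in knockdown cells, against 5.01 in control cells, with a log2 fold of 1.03 in the authors' deposited table. At the farther (chr7:148638068-148638750) the authors' means were 29.8 and 13.3 reads in knockdown and control, with a log2 fold of 0.90. The farther one therefore had the higher read count of the pair in both groups, with the smaller fold. It was also the wider, 683 bp against 401 bp, and the counts are per region. Chromosome 7, which carries EZH2, had increased promoter regions at 37.5% of its protein-coding genes. The same share was 14 to 23.6% on the chromosomes of the other members (1, 4, 9, 11 and X), and the part of the chromosome in the EZH2 values was not tested.

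EED had a single region, 171 bp inside the gene (chr11:85955977-85956377), with the second largest log2 fold of the 18. Its authors' mean was 78.2 reads in knockdown cells, against 26.1 in control cells, with a log2 fold of 1.40 and an FDR of 1.95e-06 in the authors' deposited table. That fold was above 94.4% of all increased regions. RBBP4 had the smallest log2 fold, 0.71 in the authors' deposited table, at a region covering its TSS (chr1:33116539-33116939). Its authors' mean was 72.5 reads in knockdown cells, against 41.6 in control cells, with an FDR of 0.00828, and the control mean was above that of 92.0% of all increased regions. EED and RBBP4 promoters therefore had similar knockdown means, and the control mean was the lower at EED.

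RBBP7, the paralogue of RBBP4, had a pair of increased promoter regions 346 bp apart, each over a different annotated start site. The outer one (chrX:16888434-16888834) had an authors' mean of 52.5 reads in knockdown cells, against 22.4 in control cells, with a log2 fold of 1.05 and an FDR of 0.00108 in the authors' deposited table. The inner one (chrX:16887687-16888087) was less accessible, with an authors' mean of 19.2 reads in knockdown cells, against 6.31 in control cells, and a log2 fold of 1.14 in the authors' deposited table. The remaining region, 22.4 kb upstream (chrX:16910898-16911298), had authors' means of 17.0 and 7.42 reads in knockdown and control and a log2 fold of 0.84 in the authors' deposited table. At an FDR of 0.0457 it was the member region closest to the authors' limit of 0.05. Regions just past that limit were not analysed here, and the smallest absolute log2 fold listed was 0.586.

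LCORL, the accessory gene that encodes PALI2, held the region with the lowest FDR and the largest fold of the 18. The region over its TSS (chr4:18023476-18023876) had an authors' mean of 133.9 reads in knockdown cells, against 42.8 in control cells, with a log2 fold of 1.52 and an FDR of 4.97e-10 in the authors' deposited table. By p-value it ranked 3 of all 8815 listed regions, and by fold 233 of the 8615 increased ones. The second promoter region, 754 bp inside the gene (chr4:18022329-18022729), had authors' means of 39.1 and 16.5 reads in knockdown and control, with a log2 fold of 1.003 in the authors' deposited table. The remaining 5 LCORL regions were intergenic, 54.0 to 673.8 kb upstream, in a stretch where no other gene had a listed region within 100 kb of them. Their log2 folds ran between 0.92 and 1.19 in the authors' deposited table, and their control means were between 1.62 and 12.0 reads. The farthest (chr4:18697324-18697724) had an authors' mean of 8.12 reads in knockdown cells, against 1.62 in control cells. There the difference of the log2 group means was 2.32 and the deposited log2 fold 1.07, the widest gap between these measures among the 18 regions. SLIT2, the protein-coding gene that follows LCORL in RefSeq order, had 2 increased regions of its own, with log2 folds of 1.30 and 1.44, and assignment of the intergenic regions to LCORL rests on distance alone.

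**Figure D2:**
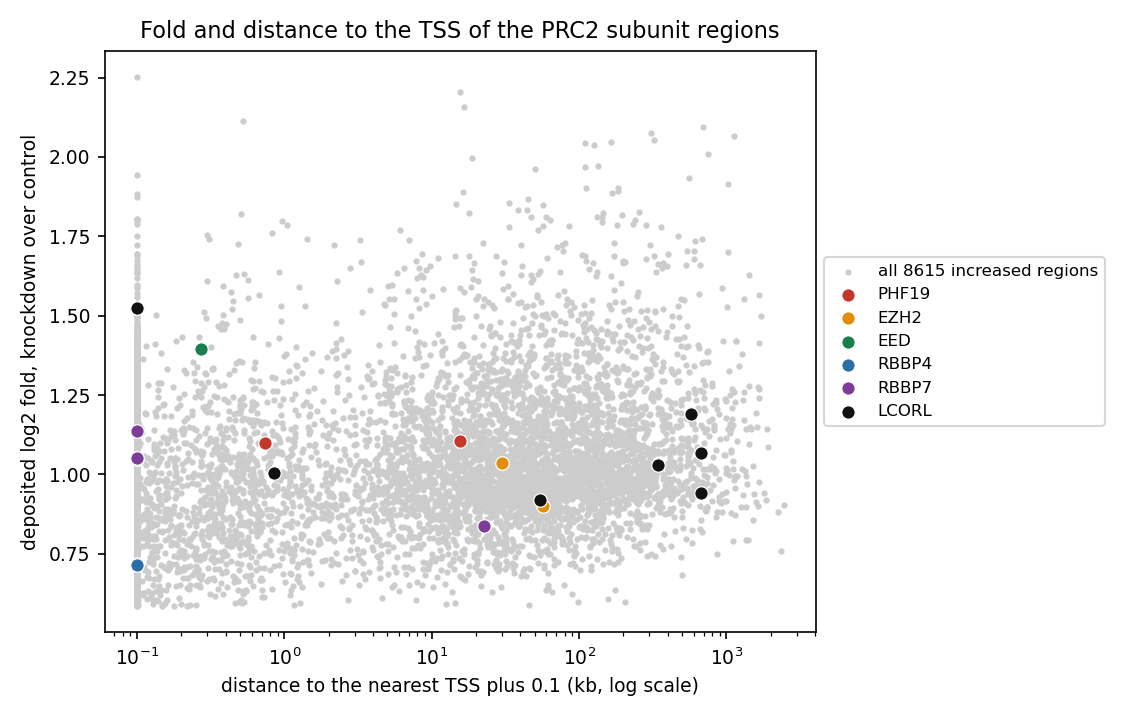
Deposited log2 fold, knockdown over control (vertical axis), against distance to the nearest TSS plus 0.1 kb (horizontal log axis) for all 8615 increased regions (grey) and the 18 member regions (coloured by gene). Member folds run from 0.71 at the RBBP4 TSS to 1.52 at the LCORL TSS, and the intergenic members lie between 0.84 and 1.19.

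Promoter members had higher group means than intergenic members, while the medians of their folds lay close together. The median over the 9 promoter regions was 57.8 reads in knockdown cells, against 26.1 in control cells. Over the 9 intergenic regions it was 17.0 reads in knockdown cells, against 5.90 in control cells. Median log2 folds were 1.05 at promoters and 1.03 in intergenic DNA, against 0.89 over all 4318 increased promoter regions and 1.03 over all 2306 increased intergenic ones. Over the 18 regions together the median log2 fold was 1.04, against 0.97 over all increased regions, and 12 regions lay above that value and 6 below it. The FDR was 0.01 or less in 8 of the 9 promoter regions and in 3 of the 9 intergenic regions, that is 88.9% and 33.3%, against 54.4% of all increased promoter regions and 38.7% of all increased intergenic ones. These values come from the contrast that chose the regions, and the authors' spread between libraries is unknown, so the order of neighbouring members is not established beyond error.

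**Figure D3:**
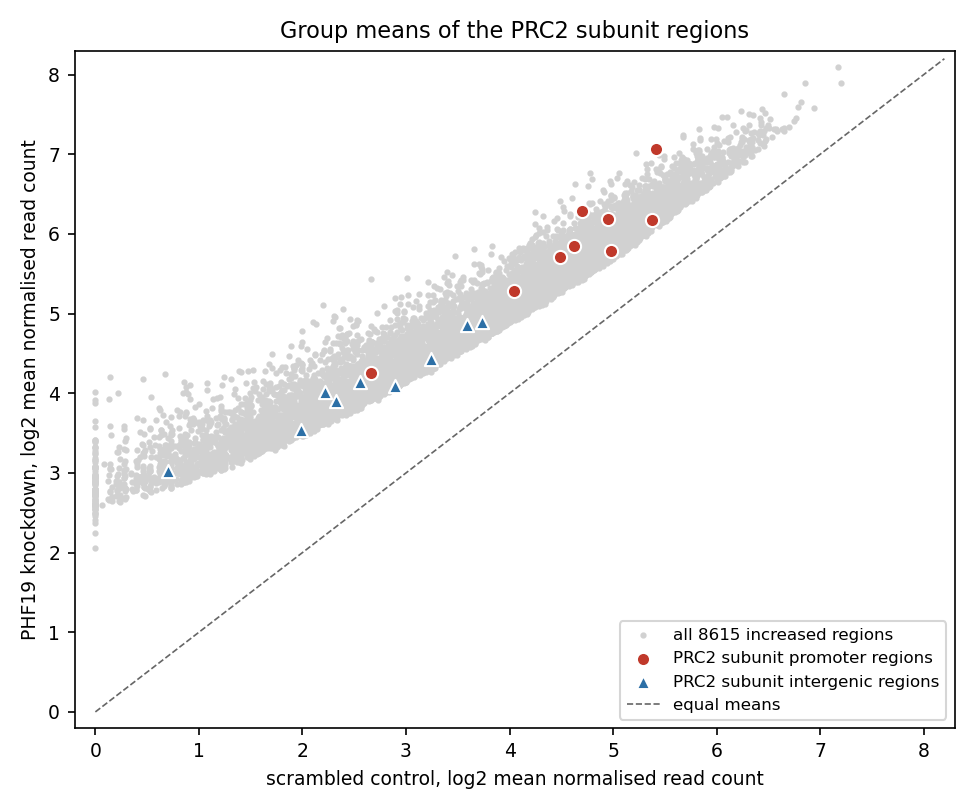
Authors' log2 mean normalised read count in PHF19 knockdown (vertical axis) against the scrambled control (horizontal axis) for all 8615 increased regions (grey), with promoter members as circles, intergenic members as triangles and a dashed line of equal means. The members lie inside the band of all increased regions, the LCORL start region at its upper edge (7.07 against 5.42). The intergenic members run from 3.02 against 0.70 to 4.90 against 3.73, where the medians of all increased regions are 4.78 and 3.48.

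The DNA before the start sites is shown for the members with the largest folds, LCORL and EED, and for PHF19 and EZH2, the targeted gene and the catalytic subunit. All 6 members matched the RefSeq promoter table (build GRCh38.p14), and for each the most upstream start of the table is used, 5′ to 3′ over the 250 bases before it. Intervals are chr4:18021876-18022125 (minus strand) for LCORL, chr11:86244503-86244752 (plus strand) for EED, chr9:120877189-120877438 (minus strand) for PHF19 and chr7:148884292-148884541 (minus strand) for EZH2, all in GRCh38.p14. They were not placed on the deposited regions, whose build differs. Capitals mark exact matches, on either strand, to GGGCGG (the SP box), CCAAT (the NF-Y box), AAGATGGC (YY1) and the E2F words TTTCGCGC, TTTGGCGC, TTTCCCGC and TTTGCCGC.
LCORL: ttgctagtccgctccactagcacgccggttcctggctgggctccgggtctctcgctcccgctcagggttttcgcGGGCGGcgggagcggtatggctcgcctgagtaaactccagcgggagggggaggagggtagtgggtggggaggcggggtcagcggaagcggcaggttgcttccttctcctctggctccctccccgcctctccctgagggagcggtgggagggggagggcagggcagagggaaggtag
EED: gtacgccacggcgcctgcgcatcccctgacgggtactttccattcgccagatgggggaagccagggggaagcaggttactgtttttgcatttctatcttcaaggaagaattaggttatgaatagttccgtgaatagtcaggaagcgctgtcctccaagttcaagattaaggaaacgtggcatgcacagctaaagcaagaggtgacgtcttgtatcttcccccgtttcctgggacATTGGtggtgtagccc
PHF19: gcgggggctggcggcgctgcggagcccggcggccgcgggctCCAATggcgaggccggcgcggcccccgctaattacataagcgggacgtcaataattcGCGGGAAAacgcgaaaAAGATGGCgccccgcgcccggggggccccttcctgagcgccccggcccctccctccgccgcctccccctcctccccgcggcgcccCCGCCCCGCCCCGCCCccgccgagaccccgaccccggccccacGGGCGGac
EZH2: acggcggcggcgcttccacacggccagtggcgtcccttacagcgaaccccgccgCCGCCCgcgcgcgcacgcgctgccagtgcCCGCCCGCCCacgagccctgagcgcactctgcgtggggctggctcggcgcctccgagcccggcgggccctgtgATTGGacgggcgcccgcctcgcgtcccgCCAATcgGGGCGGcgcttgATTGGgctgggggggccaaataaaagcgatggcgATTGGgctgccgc

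The EED promoter stood apart from the other members in base composition. Over the 300 bases from 250 before to 50 after the start, G and C made up 52.3% of the EED promoter, against 70 to 79.7% in the other 5 members and a median of 58.7% over all 35116 promoters of the table. EED also had the fewest CpG dinucleotides, 16, with 25 in LCORL, 42 in RBBP4, 44 in RBBP7, 46 in EZH2 and 48 in PHF19. The CCAAT box matched in 5 members, all but LCORL, and in 34.6% of all promoters. EZH2 held 4 CCAAT matches, RBBP4 held 2, and PHF19, EED and RBBP7 held 1 each. GGGCGG matched in 5 members, all but EED, and in 45% of all promoters. E2F words matched in PHF19 and EZH2 and in 3.31% of all promoters, the EZH2 match lying just after the start and so outside the bases shown. At the same starts AAGATGGC matched in PHF19 and in 2.89% of all promoters. At these most upstream starts no member matched GCGCATGC (NRF1, 3.05% of all promoters), CCGGAAGT (ETS, 4.14%) or the RUNX words TGTGGT and TGCGGT (19.6%). The second RefSeq start of RBBP7, inside the gene, had an AAGATGGC match at position -193 and a CCGGAAGT match at position 12 from that start. Matches of different motifs did not overlap, while 5 pairs of GGGCGG matches overlapped each other. A match describes letters only.

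The listed regions around the members were increased ones, as were all but 200 of the 8815 listed regions. Within 100 kb of the member regions lay 10 distinct listed regions of 7 other genes, and none of these was decreased. The closest belonged to ZBTB8OS, which is transcribed away from RBBP4 on the opposite strand. Its promoter region (chr1:33115958-33116358) lay 180 bp from the RBBP4 region, with an authors' mean of 29.7 reads in knockdown cells, against 14.9 in control cells, and a log2 fold of 0.80 in the authors' deposited table. Near EZH2, the disulfide isomerase gene PDIA4 had 3 increased regions with log2 folds between 0.65 and 1.002 in the authors' deposited table. The cullin gene CUL1, on the other side of EZH2 in RefSeq order, had 2 promoter regions at 1.29 each, beyond 100 kb of the member regions. Promoters of B3GALT9 (0.88) and CUTALP (0.77) near PHF19 and of TXLNG (0.64) near RBBP7 were increased in the authors' deposited table. NCAPG, before LCORL in RefSeq order, had 1 increased region away from its promoter (0.91), beyond 100 kb of the member regions. HIKESHI, which follows EED, had an increased promoter (0.89). PICALM, which precedes EED, had 3 increased regions (0.97 to 1.01), of which only the intergenic region (1.01) lay within 100 kb of the EED region. Of the 12 protein-coding genes that flank the 6 members in RefSeq order, 8 were assigned an increased region, 6 of them at a promoter. The shares over every protein-coding gene were 25.2% and 17.5%. No listed region was assigned to PSMD5 or TRAF1 beside PHF19, SYNC beside RBBP4 or REPS2 beside RBBP7. The annotation gives a region at most 1 gene symbol, so a region at these genes may be listed under another. Whether their accessibility changed is not known here.

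Set against the whole complex, 6 of 15 PRC2 genes (40%), counting the inhibitor EZHIP, had increased regions, each with at least 1 at the promoter. Over all protein-coding genes, 25.2% had an increased region and 17.5% an increased promoter. The 6 are the members themselves, and the lists were chosen with earlier results known, so nothing is read from these shares. In the core, the genes with increased regions were 4 of 6, with EZH1 and SUZ12 unlisted. In the PRC2.1 class they were 2 of 6, with PHF1 and MTF2, the other Polycomb-like genes, and EPOP and LCOR unlisted. Neither PRC2.2 gene, JARID2 or AEBP2, was listed, nor was the inhibitor EZHIP. For an unlisted gene no level is known here. Of the enzymes that oppose or neighbour the mark, 1 of 3 demethylases of histone H3 lysine 27 was listed, KDM6B. Its log2 folds were 1.30 at 2.61 kb from its TSS and 1.03 in its first intron in the authors' deposited table. These 2 regions adjoin without a gap (chr17:7745848-7746248 and chr17:7746249-7746649). The second lay 3.01 kb from the TSS, just past the 3 kb limit of the promoter label. Histone H3 lysine 36 methyltransferases, whose mark the PHF19 Tudor domain binds, were listed in 4 of 6 cases. NSD2 (log2 fold 0.93), SETMAR (0.92), SETD2 (0.91) and NSD3 (0.75) each had 1 increased promoter region in the authors' deposited table. In the PR-DUB complex, which removes ubiquitin from histone H2A, ASXL2 (0.69) and ASXL1 (0.59) had increased promoters, and BAP1 and ASXL3 were unlisted.

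Complexes that share RBBP4 or RBBP7 were listed in 6 of 18 partner genes (33.3%), and 4 of the 18 (22.2%) had an increased promoter, shares near the 25.2% and 17.5% of all protein-coding genes. In NuRD, a deacetylase and remodelling complex, these were HDAC2, MBD3, CHD4 and GATAD2A, and in the SIN3 deacetylase complex SIN3A and SAP30. The largest of their log2 folds was 1.23 in the authors' deposited table, at a region 9.73 kb upstream of the HDAC2 TSS. The annotation places it in an intron of a transcript that carries no gene identifier. Its authors' mean was 12.1 reads in knockdown cells, against 2.76 in control cells. The HDAC2 promoter had a log2 fold of 0.67. Both subunits unique to the CAF-1 histone chaperone, CHAF1A and CHAF1B, were unlisted. The median log2 fold over the 10 regions of these partners was 0.82, against 1.04 over the 18 PRC2 regions and 0.97 over all increased regions. The sets differ in their mix of promoter and other regions, and LCORL alone held 7 of the 18. Over all increased regions the median was 0.89 at promoters and 1.03 in intergenic DNA, and the sets were not matched for place. No gene of any of these lists had a decreased region. Only 0.818% of all protein-coding genes had one, so nothing is read from this absence.

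**Figure D4:**
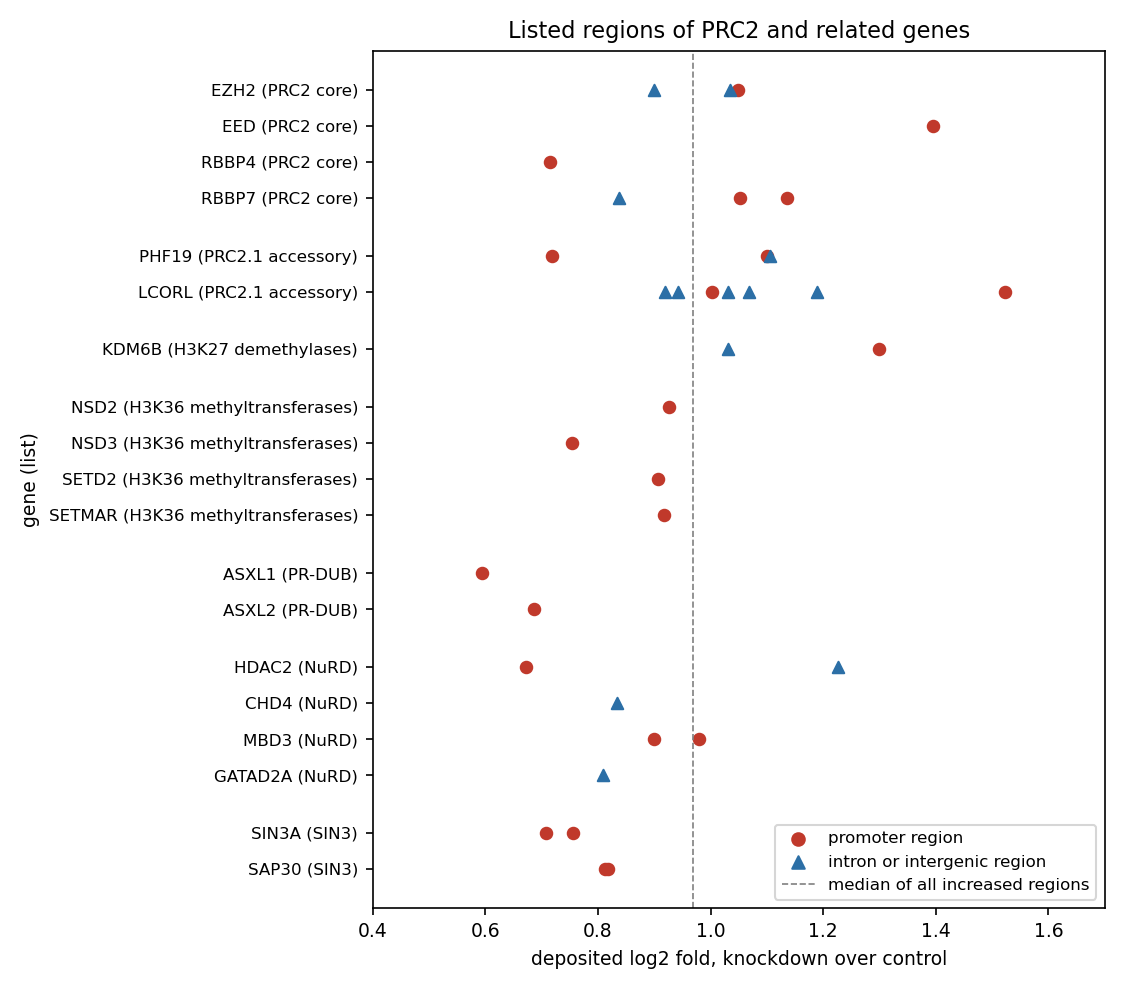
Deposited log2 fold, knockdown over control (horizontal axis), of every listed region of PRC2 and related chromatin genes (vertical axis, gene and list), with circles for promoter regions, triangles for intronic or intergenic regions and a dashed line at the median of all increased regions. The LCORL and EED promoters lie farthest right at 1.52 and 1.40, and ASXL1 lies farthest left at 0.59.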

How the data were processed

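Per the labels' protocols, 7 ATAC-seq libraries of Kasumi-1 cells were sequenced as paired reads of 150 nt. Tools named per the submitters' processing notes, with no role or setting, are MACS2 2.2.6, Bowtie2 2.4.1, deepTools 1.5.12 and Picard 2.2.4. Not given in the sources used here are the tool behind the folds, its normalisation, any transposase shift and the merging of regions. Per the file headers, the authors deposited log2 mean normalised read counts, over all libraries and per group, a log2 fold, and p-values with an FDR for each region. The column KP was read as knockdown and KC as control from their letters and the file names. Weighting the group means by 3 and 4 libraries gave the overall mean, within 0.001 of the weight, in 98.5% of regions. No listed FDR exceeded 0.05, and no listed change was smaller than 1.50-fold.

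Linear reads are 2 to the power of the deposited log2 mean. The number of tested regions, 52675, was recovered as FDR times rank over p-value, a step tested on simulated data. The notes name hg38, but a gene boundary equalled the GRCh38 one in only 0.228% of regions, so coordinates are given as deposited and read as hg19. RefSeq (GRCh38.p14) gave gene types and neighbours, and 99.7% of gene identifiers matched. Promoters reach 3 kb from a TSS in the deposited annotation.

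Every member region, every listed gene of the fixed lists and the nearest protein-coding neighbours are named. The members and lists were chosen with earlier results of these data known. No test was run, since only the authors' group means of regions past their thresholds are held. Whether the libraries of a group were separate cultures is not stated, and the spread behind the authors' p-values may be technical. Alternatives were stricter limits on FDR and fold, limits on distance, promoter regions only, 1 region per gene, the list without RBBP4 and RBBP7, and the difference of group means. Python 3.11.15, pandas 2.3.3, numpy 2.4.6 and matplotlib 3.10.9 were used.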

Additional observations from a re-analysis of the deposited data

How the results depend on the processing

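Of the 18 member regions, 11 (61.1%) remained at an FDR of at most 0.01 and 12 (66.7%) at a log2 fold of 1 or more. Within 3 kb of a TSS 9 (50%) remained, the same number within 10 kb, and 14 within 100 kb. Over all 8615 increased regions, 45.9% had an FDR of at most 0.01 and 43.4% a log2 fold of 1 or more. Promoters, which reach 3 kb from a TSS, held 50.1% of them. The same contrast chose the members, so nothing is read from these differences. All 6 genes had an increased promoter region under the narrower distance limits and at the stricter FDR, and 5 did at a log2 fold of 1 or more, where RBBP4 was lost. The median log2 fold of 1.04 was 1.05 over promoter regions only, 1.08 with 1 region per gene and 1.26 as the difference of the log2 group means. That difference was above 0 in 18 regions and larger than the deposited fold in each. The count of 6 PRC2 genes was 4 without RBBP4 and RBBP7. No paired analysis was possible because the lists hold group means only, and for the same reason no replicate was left out. Low reads limit the intergenic regions most: the mean over all libraries was under 10 reads in 4 of the 9 and in none of the promoter regions. The same held for 1103 of all 2306 increased intergenic regions and 241 of all 4318 increased promoter regions, so low reads are not particular to the members.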

Other observations

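Each member's promoter region of lowest FDR was compared with the increased promoter regions of other genes by the distance between their 2 log2 group means in the authors' deposited table. The closest to PHF19 was API5 (distance 0.016), the closest to EZH2 was OPN3 (0.013), and the closest to EED was SLTM (0.017), with MAP3K7 next (0.045). RBBP4 lay closest to RANBP3-DT (0.018) and SF3B2 (0.018), and RBBP7 to HMGN3-AS1 (0.011). The LCORL start region had no neighbour as close, the nearest being GBE1 (0.073) and DET1 (0.11). Each likeness rests on 2 group means, not on a pattern over libraries.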
